A study of Mus musculus with 2 samples.

Results

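The regions described here are stretches of chromatin that carried trimethylation of lysine 4 of histone H3 (H3K4me3) in both cell lines of the study and whose DNA was very poor in CpG dinucleotides. In each library, 200 bp windows with at least 6 reads were linked when no more than 1 kb apart, stretches under 20 reads were dropped, and overlapping regions of the libraries were merged on chromosomes 1 to 19. Of 11797 merged regions, 10257 had a region from each library and 9907 of these were under 4 kb wide. The 558 members were chosen by an observed over expected CpG ratio under 0.4, computed from the bases of the reads inside them. The ratio is the number of CG steps per base step over the number that the GC content alone would give. Members were thus selected on read counts in both libraries, width and CpG ratio, and these are given as description.

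The study compared mouse embryonic fibroblasts of genotype Lsh+/+ (WT) with fibroblasts of genotype Lsh-/- (Lsh_KO), grown in the same serum-containing medium. Lsh (Hells) is an SNF2-type ATPase that remodels chromatin, and cells without it lose much of their DNA methylation. Nucleosomes were released by micrococcal nuclease and precipitated with an antibody against H3K4me3. Each genotype had 1 library and no input library was used here, so nothing tests the genotype, and a difference between the lines other than Lsh cannot be told apart from the loss of Lsh. The sources used here do not say how many embryos or clones each line came from.

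H3K4me3 marks the nucleosomes around the start sites of active and poised genes. In mammals most of it lies on CpG islands, where proteins with CXXC domains that bind unmethylated CpG bring the methyltransferases of the Set1 and Mll families. Promoters poor in CpG lack this feature and are often used in a restricted set of cell types, where the mark appears together with transcription.

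Sequences of 3 kinds show what lies in these regions. The first set shows how far CpG content varies among promoters inside members: the 120 bases before the start site, from RefSeq on GRCm38.p6, written 5′ to 3′ in the direction of the gene with each CG in capitals. Myl6, Kcnab1 and Kirrel are among the members with most reads, and Hmcn1 and S1pr5 are 2 with a higher ratio in Lsh_KO.
Myl6 (chr10:128493010-128493129, minus strand): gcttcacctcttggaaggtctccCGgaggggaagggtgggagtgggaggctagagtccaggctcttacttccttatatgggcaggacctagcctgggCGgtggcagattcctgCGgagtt
Kcnab1 (chr3:65108894-65109013, plus strand): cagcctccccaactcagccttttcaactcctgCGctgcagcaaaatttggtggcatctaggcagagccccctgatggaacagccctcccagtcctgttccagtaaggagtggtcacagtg
Kirrel (chr3:87174538-87174657, minus strand): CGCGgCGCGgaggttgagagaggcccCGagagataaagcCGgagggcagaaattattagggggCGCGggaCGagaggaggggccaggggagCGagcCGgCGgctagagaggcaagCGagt
Hmcn1 (chr1:150993436-150993555, minus strand): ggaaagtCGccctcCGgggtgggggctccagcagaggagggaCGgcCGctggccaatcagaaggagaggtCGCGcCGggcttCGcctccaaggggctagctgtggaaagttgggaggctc
S1pr5 (chr9:21248444-21248563, minus strand): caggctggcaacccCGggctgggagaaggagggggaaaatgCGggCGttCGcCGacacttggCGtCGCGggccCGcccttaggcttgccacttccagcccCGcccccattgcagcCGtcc
Kcnab1 had 1 CG and Myl6 3 in these bases, whereas Hmcn1 had 8, S1pr5 11 and Kirrel 13: a region can be poor in CpG as a whole and still hold a promoter with many.

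The second set shows promoters of members that hold a word bound by a known family of factors, again from RefSeq on GRCm38.p6. Each is a stretch of 80 bases around the word, taken from the 250 bases before the start, and its place before the start follows the sequences. In the following 4 the capitals mark TGAGTCA or TGACTCA, the word of the AP-1 factors (Fos and Jun proteins).
Palld (chr8:61591151-61591230, minus strand): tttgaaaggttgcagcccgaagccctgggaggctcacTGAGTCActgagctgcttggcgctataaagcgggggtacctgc
Plaur (chr7:24462377-24462456, plus strand): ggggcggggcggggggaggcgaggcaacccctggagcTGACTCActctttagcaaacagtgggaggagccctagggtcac
Emp1 (chr6:135362749-135362828, plus strand): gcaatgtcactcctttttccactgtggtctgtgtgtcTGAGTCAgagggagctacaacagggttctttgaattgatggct
Cald1, start inside the second region (chr6:34709210-34709289, plus strand): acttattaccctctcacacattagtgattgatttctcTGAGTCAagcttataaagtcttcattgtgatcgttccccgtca
The stretches ended 12 bases before the start in Palld, 27 in Plaur, 103 in Emp1 and 155 in Cald1, and the base next to the start is counted as 1. In the next 4 the capitals mark GAAA, any 2 bases and GAAA, read on either strand and with overlapping matches included, the core of the interferon-stimulated response element.
Irgm1 (chr11:48871421-48871500, minus strand): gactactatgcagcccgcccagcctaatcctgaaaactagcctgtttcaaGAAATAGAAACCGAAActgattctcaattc
Igtp (chr11:58199476-58199555, plus strand): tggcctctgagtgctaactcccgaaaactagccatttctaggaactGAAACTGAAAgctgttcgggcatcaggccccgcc
Oas1c (chr5:120812584-120812663, minus strand): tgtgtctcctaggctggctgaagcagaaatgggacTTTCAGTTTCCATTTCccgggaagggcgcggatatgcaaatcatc
Ifit1bl2 (chr19:34640769-34640848, minus strand): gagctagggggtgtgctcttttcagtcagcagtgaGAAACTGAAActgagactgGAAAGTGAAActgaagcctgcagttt
The stretches of Irgm1 and Igtp ended at base 1 before the start, that of Oas1c at base 70 and that of Ifit1bl2 at base 26. Irgm1, Oas1c and Ifit1bl2 each hold the word 2 times, overlapping in the former 2, and Igtp holds it 1 time. Ifit1bl2 has 0 CG in the stretch.

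The third set comes from members in which no RefSeq promoter was matched, where the overlapping reads themselves give the sequence, on the plus strand of mm8 with each CG in capitals. The first 2 lie in the 2 members whose intervals lie farthest below 1, the third in the member with most reads and the last in a member high in Lsh_KO.
In the region chr4:62186001-62187400 (chr4:62186070-62186219, plus strand): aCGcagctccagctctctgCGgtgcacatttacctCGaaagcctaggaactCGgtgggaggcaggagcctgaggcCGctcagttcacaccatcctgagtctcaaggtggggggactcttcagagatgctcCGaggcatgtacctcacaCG
In the region chr1:136617001-136620200 (chr1:136617946-136618088, plus strand): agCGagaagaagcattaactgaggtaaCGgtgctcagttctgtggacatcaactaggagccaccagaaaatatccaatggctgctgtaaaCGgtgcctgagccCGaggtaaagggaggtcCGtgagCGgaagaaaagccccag
In the region chr15:66720601-66724200 (chr15:66722069-66722218, plus strand): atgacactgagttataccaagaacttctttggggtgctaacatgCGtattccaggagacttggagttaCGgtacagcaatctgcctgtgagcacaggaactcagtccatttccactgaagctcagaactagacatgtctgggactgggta
In the region chr1:171945801-171947800 (chr1:171947145-171947285, plus strand): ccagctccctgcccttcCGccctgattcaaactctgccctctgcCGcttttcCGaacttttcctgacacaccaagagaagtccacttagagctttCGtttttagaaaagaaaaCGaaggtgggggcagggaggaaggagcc
These runs rest on 25, 17, 28 and 24 reads, in which 99.8%, 99.1%, 99.3% and 99.3% of the bases were the printed one. The run of the region with most reads has 2 CG in 150 bases.

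The WT library held 2471782 distinct reads, counted once per position and strand, and the Lsh_KO library 2790389. All ratios of Lsh_KO to WT are divided by 1.42, the median ratio of 2 kb windows marked in both libraries, and intervals are exact conditional (Clopper-Pearson) 95% intervals that cover counting error only, since amplified reads are not independent molecules. Of the fibroblast markers, 6 had a promoter sequence in the table used, and of these only Vim lay in a region (199 WT and 334 Lsh_KO reads). Col1a2 and Col3a1 had at most 2 reads per library in their promoter sequence, S100a4 had 4 WT reads and 1 Lsh_KO read, and Pdgfra and Postn had 0. Of 12 markers of other cell types with a promoter, Krt18 (3 WT and 57 Lsh_KO reads) and Kdr (22 and 47) lay in a region. The part that the origin of the lines has in the ratios was not tested.

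Members were somewhat narrower and held fewer reads than other shared regions. Their median width was 1400 bp, against 1600 bp in shared regions with a CpG ratio of 0.4 to 0.6 (2255 regions) and in those of 0.6 and over (7094 regions). WT reads per member ran from 7 to 202 with a median of 36, and Lsh_KO reads from 10 to 286 with a median of 52, against medians of 51 and 77 at a ratio of 0.4 to 0.6. Per kb of region, the median was 29.1 WT and 41.8 Lsh_KO reads in members, 34.0 and 50.6 at 0.4 to 0.6, and 32.8 and 48.3 at 0.6 and over. Members together took 1.07% of WT and 1.34% of Lsh_KO distinct reads.

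The base content of the members was not that of AT-rich DNA. Their median GC content was 55.3%, against 57.8% and 60.1% in the higher classes. The median CpG ratio was 0.325. The observed over expected ratio of TG and CA steps, the steps into which a methylated CG decays, had a median of 1.23 in members, 1.14 at 0.4 to 0.6 and 1.05 at 0.6 and over. It comes from the same read bases and GC content as the CpG ratio. Fewer CG steps leave more room for other steps after a C and before a G, so this order is partly set by the rule. Decay of methylated CG was not tested. The 3 members just inside the limit had CpG ratios of 0.3994, 0.3995 and 0.3997, the last with the start of Tyk2, a Janus kinase (52 WT and 88 Lsh_KO reads). The 3 regions just outside had 0.4002, 0.4004 and 0.4006, the first with the start of Numbl (50 and 79 reads), so the limit falls within a continuous range.

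Promoters were sought by sequence, because the reads lie on mm8 and the promoter table on a later build. A region was matched to a gene when at least 3 distinct reads without a mismatch were identical to words found in the promoter of that gene alone, where a promoter is 250 bases before to 50 bases after a RefSeq start. Of the 546 members not on chromosome 18, which was not matched, 225 (41.2%, exact 95% interval 37.0 to 45.5) matched a promoter, against 55.2% at a CpG ratio of 0.4 to 0.6 and 60.4% at 0.6 and over. The share was 29.9% among members with a ratio under 0.3 and 48.0% among the rest. Matched members had more reads, with medians of 44 WT and 70 Lsh_KO, than the 321 without a match, with 32 and 42, and a match itself needs reads.

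The members without a match were in part close to start sites. Start sites were placed on mm8 by at least 2 reads matching a promoter. Of the 321, 34 held such a start inside, 41 more lay within 1 kb of one, and 97 lay over 50 kb from any that could be placed. A start could be placed only for a gene with a promoter in the table and matching reads. Genes such as Col1a1 and Fn1 had no promoter there. The nearest placed start was 2010060 bp from chr15:38329001-38330200 and 8258860 bp from chr15:44577801-44579000. Unmatched and far members can therefore have starts that could not be found. Matched or not, 82.2% of members lay within 50 kb of a placed start, close to 86.0% at 0.4 to 0.6 and 85.1% at 0.6 and over. Within 1 kb the shares were 54.9%, 66.6% and 70.8%. The member with most reads, chr15:66720601-66724200 with 202 WT and 286 Lsh_KO reads, was 1 of the unmatched. Of all 558, 61 lay within 5 kb of another shared region that was not a member. Exons and introns are not given, for want of gene models on mm8.

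The CpG content of the promoters inside members spread widely. The median CpG ratio of the matched promoter sequence was 0.422 (quartiles 0.294 and 0.608), against 0.704 and 0.835 in the higher classes and 0.376 over all 32851 promoters of the table. In 99 members (44.0%) the promoter itself was under 0.4, against 7.40% at a region ratio of 0.4 to 0.6 and 2.57% at 0.6 and over. In 59 members (26.2%) the promoter had a ratio of 0.6 or more, as those of Hmcn1 (0.634), S1pr5 (0.751) and Dhcr7 (0.826) did. Since the reads of the promoter are part of those that chose the region, these shares are descriptions.

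**Figure D1:**
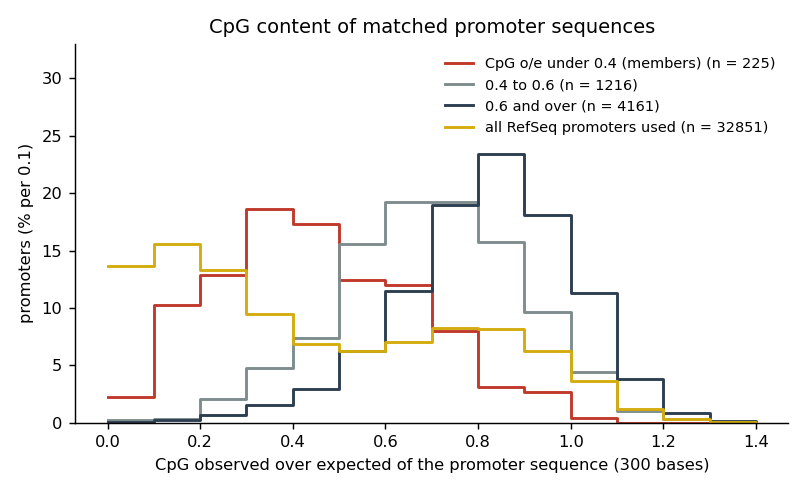
Share of matched promoters (y axis, % per 0.1) by the observed over expected CpG of their 300 bases (x axis), for the members, the 2 higher classes of shared regions and all RefSeq promoters used. The members' line peaks between 0.3 and 0.5, below both other classes, and has a tail above 0.6.

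The 20 promoter-matched members with most reads held genes of many kinds. Gm30368 had 200 WT and 278 Lsh_KO reads. Kcnab1, a beta subunit of voltage-gated potassium channels, had 186 and 229. Hspg2, which encodes the basement membrane proteoglycan perlecan, had 172 and 199. All 3 had fewer Lsh_KO reads than the scaling would give, and none was called different. Myl6, a myosin light chain, had 137 and 208 reads. Palld, the actin-associated protein palladin, had 109 and 190. Cd44, a hyaluronan receptor, had 128 and 153. Rhoc, a small GTPase that acts on actin, had 124 and 157 reads, and Kirrel, an adhesion protein of the immunoglobulin family, had 120 and 158. Log2 ratios of the 20 promoter-matched members with most reads ran from -0.46 (Irgm1, 154 and 159 reads) to 0.48 (Ndufa4, 89 and 177 reads), and 0 of the 20 were called. The others were the regions of Upk3b, Gm42009, Orc4, Tcirg1, 2410006H16Rik, Abl1, Gm1976, Nynrin and Rin1, and chr6:34528201-34531200 with a start of Cald1 (128 and 223 reads). A further region among the 10 with most reads, chr10:85730201-85733200 (172 and 274 reads), held the start of Timp3, an inhibitor of metalloproteinases, placed by 2 reads. Also among the 10 and without a matched promoter were chr19:9032601-9036000 (154 and 237), chr19:7041001-7044000 (170 and 215) and chr19:10304801-10307800 (172 and 209). The region chr19:7041001-7044000 held a placed start of Ppp1r14b.

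Around the matched starts, the mark of members lay more on the side of the gene body. Reads were counted by the distance of their nucleosome position from the start, in the direction of the gene. In both libraries reads dipped just before the start and were most frequent 100 to 200 bp after it, where members had 10.4% of WT and 10.5% of Lsh_KO reads within 2 kb. The classes of 0.4 to 0.6 and of 0.6 and over had 9.26% and 8.99% of WT reads there. In the peak before the start, at -300 to -200 bp, members had 4.61% of WT and 4.77% of Lsh_KO reads, against 5.31% and 5.51% at 0.4 to 0.6 and 5.69% and 5.91% at 0.6 and over.

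Of the reads within 1 kb of a member start, 26.6% of WT (exact 95% interval 25.8 to 27.5) and 26.4% of Lsh_KO (25.7 to 27.1) lay before it. The same share was 33.3% of WT and 35.0% of Lsh_KO reads at 0.4 to 0.6, and 35.5% and 37.1% at 0.6 and over. Starts on both strands were found in 19 of the 225 members (8.44%), 15.1% of the regions at 0.4 to 0.6 and 17.7% at 0.6 and over. Without such regions the share was 24.7% of WT reads in members, 29.7% at 0.4 to 0.6 and 31.4% at 0.6 and over, so the order of the classes was the same. Reads of a region are not independent of each other, and other regions with an unlisted start were not left out.

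**Figure D2:**
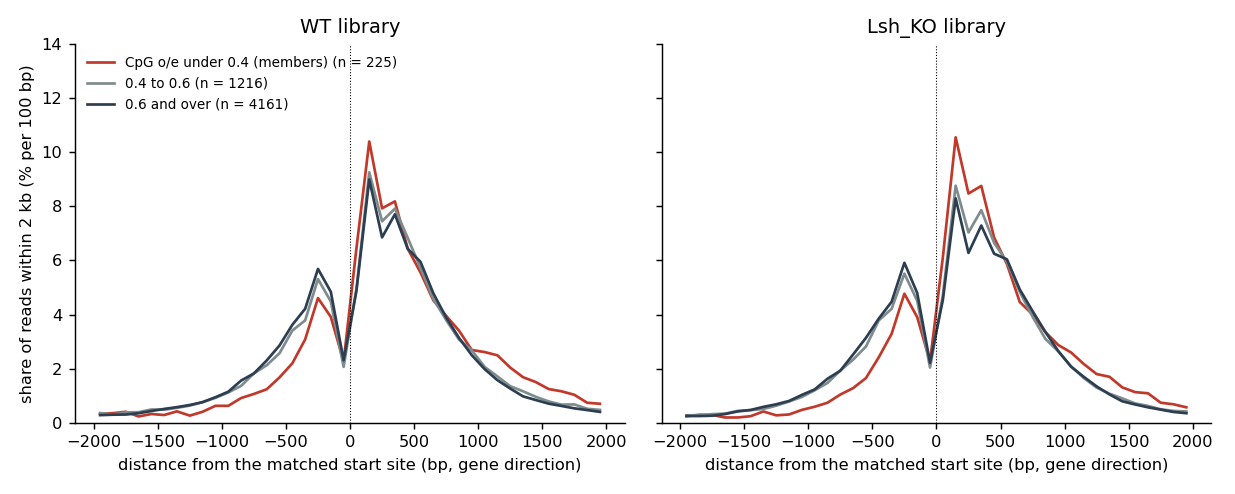
Share of reads within 2 kb (y axis, % per 100 bp) by distance from the matched start site in the direction of the gene (x axis, bp), for the WT and the Lsh_KO library and 3 CpG classes. The members' line is lower than the others at -300 to -200 bp and higher at 100 to 200 bp, in both libraries.

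Words of transcription factors were counted in the 250 bases before the start, on both strands. AP-1 words (TGAGTCA or TGACTCA) stood in 18 of 225 member promoters (8%, exact 95% interval 4.81 to 12.3), 2.55% of those at 0.4 to 0.6, 2.33% at 0.6 and over and 4.46% of all promoters. The same letters in reversed order, ACTGAGT or ACTCAGT, a control chosen after the values were seen, stood in 6.67% of member promoters, 2.71% and 1.97% of the higher classes and 3.31% of all. Among promoters with a CpG ratio under 0.4, AP-1 words stood in 10 of 99 in members (10.1%, 4.95 to 17.8), 4 of 197 in other shared regions (2.03%, 0.556 to 5.12) and 6.02% of all 17090 in the table, and the reversed words in 7.07%, 5.58% and 4.20%. In both counts the interval of the AP-1 share in members takes in the share of the reversed words in members, but not the AP-1 share of the other shared regions. Among promoters under 0.4 it also takes in the AP-1 share of all such promoters in the table, 6.02%. In single reads of 25 bases, 0.320% in members, 0.211% at 0.4 to 0.6, 0.173% at 0.6 and over and 0.404% outside regions held an AP-1 word.

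The interferon word, also chosen after the values were seen, stood in 15 member promoters (6.67%, 3.78 to 10.8), 2.06% and 2.02% of the higher classes and 2.98% of all promoters. Its letters in reversed order (AAAG, any 2 bases, AAAG) stood in 3.56%, 1.73%, 1.78% and 2.71%. The TATA box (TATAAA) stood in 4.00% of member promoters, 4.61% and 4.06% of the higher classes and 12.4% of all. GGAATG, the word of TEAD factors, stood in 14.2% of member promoters and the E-box CAGCTG in 16.9%, against 9.54% and 11.7% at 0.4 to 0.6 and 12.6% and 13% of all promoters. CCAAT stood in 34.7% of member promoters and 33.8% of all. Among promoters with a CpG ratio under 0.4, GGAATG stood in 19.2% in members, 21.8% in other shared regions and 15.1% of all. In the same order, CAGCTG stood in 21.2%, 12.7% and 14.6%, and TATAAA in 4.04%, 7.61% and 17.8%. The interferon word stood in 10.1%, 4.06% and 3.69%, and its reversed form in 4.04%, 2.03% and 3.30%. The words that contain CG are touched by the rule: GGGCGG stood in 46.7% of member promoters and 65.2% at 0.6 and over, CCGGAA in 18.2% and 25.7%, and TGACGTCA in 1.78% and 3.36%. CATATTAG, or CTATATTA followed by GG, words chosen for the serum response factor, stood in 0 of the 225, which allows a share of up to 1.63%. These words leave out other forms of its site, such as CCTTATAT followed by GG in the Myl6 sequence above. The count therefore says nothing of such sites as a whole. A word is a match of letters, not a bound site.

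**Figure D3:**
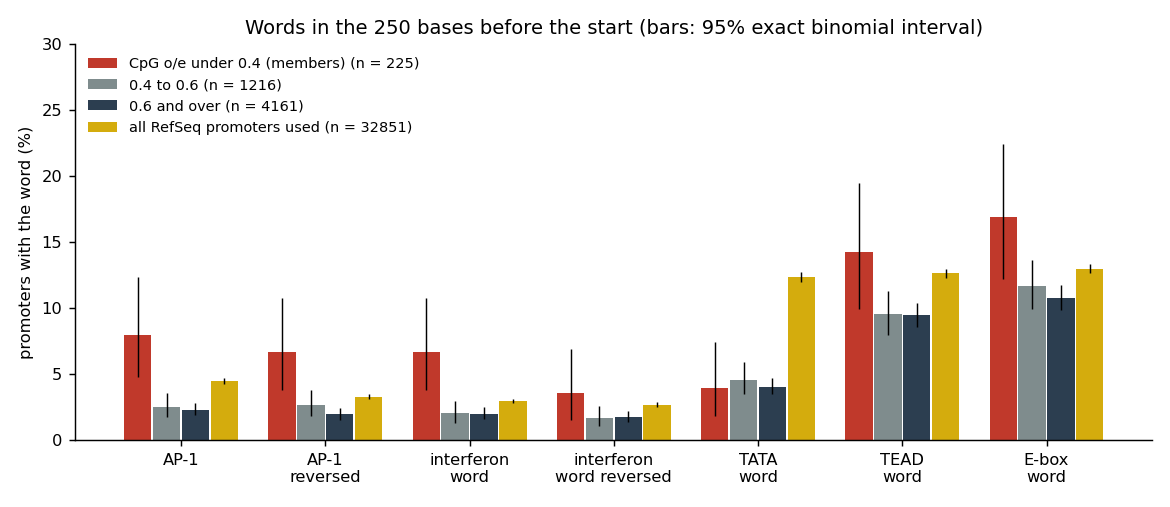
Share of promoters with each word in the 250 bases before the start (y axis, %, bars 95% exact binomial intervals) for the members, the 2 higher CpG classes and all RefSeq promoters used. The members' AP-1 bar (8%) and its reversed control (6.67%) both stand above those of the higher classes.

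The 18 members with an AP-1 word and the 15 with an interferon word had log2 ratios on both sides of 0. With an AP-1 word, 1 was called higher and 0 lower, with a median log2 ratio of 0.11. Over all 225 matched members 5 (2.22%) were called higher and 8 (3.56%) lower, with a median of 0.04, so the counts in groups of 18 and 15 are too small to read against them. Plaur, the urokinase receptor, had 82 WT and 96 Lsh_KO reads. Emp1, a membrane protein of the epithelial membrane protein family, had 58 and 112. With an interferon word, 1 was called higher and 2 lower, and the median was 0.09. Of these 15, 8 had a log2 ratio above 0 and 7 below. Irgm1, an immunity-related GTPase, had 154 and 159 reads (log2 ratio -0.46), and Igtp, another of that family, had 40 and 35 (-0.70).

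The line of equal scaled level ran through the middle of the members. The scaling rests on windows marked in both libraries, and members are marked in both by rule. A median near 0 is thus in large part set by the scaling. The median log2 ratio of Lsh_KO to WT was -0.04 (quartiles -0.35 and 0.29), against 0.07 at a CpG ratio of 0.4 to 0.6 and 0.05 at 0.6 and over. Matched members had a median of 0.04 and unmatched ones of -0.11. A call needed a ratio of 2-fold or more, an interval without 1 in it and 20 reads or more over both libraries. Of 557 members with enough reads, 15 (2.69%, exact 95% interval 1.51 to 4.40) were called higher and 25 (4.49%, 2.93 to 6.55) lower in Lsh_KO. Over all 11470 merged regions tested, 2.87% were called higher and 3.89% lower, and over the other 9347 shared regions under 4 kb the shares were 0.888% and 1.28%. The merged regions include those present in 1 library alone, which members cannot be.

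Scaling by total reads instead moved every log2 ratio up by 0.33. Higher calls made up 37.5% of all calls with the scaling by marked windows and 80% with total reads (48 higher and 12 lower), so which direction prevailed depended on the scaling. All 15 higher calls and 12 of the 25 lower ones were called under both. Chromosome 18, with 12 members, had a median log2 ratio of 0.57 and 2 of the 15 higher calls. With the ratio of background reads in the surrounding 5 Mb taken into the scaling, 11 of the 15 higher and 20 of the 25 lower calls were made again, and 1 of the 2 on chromosome 18, chr18:77251201-77252200 (17 WT and 51 Lsh_KO reads), was not.

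Members were called more often than other shared regions at like read numbers, except at the fewest reads. At 20 to 39 reads of both libraries together, 6.82% of members and 6.85% and 6.94% of the higher classes were called. At 40 to 79 reads the shares were 9.64%, 5.52% and 4.97%, at 80 to 159 they were 7.98%, 2.69% and 1.87%, and at 160 and over 2.34%, 0.921% and 0.216%. The last rests on 3 of 128 members. The window lists of the submitters hold further reads, whose origin is not stated. In these all 15 higher members were on the same side, 8 again at least 2-fold, and 24 of the 25 lower ones, 18 again at least 2-fold. These reads come from the same 2 libraries and are part of the window counts that chose the members. Whether they include the repeats dropped from the read lists is not known. The same side in them is thus no support for the calls, and they are no repeat of the culture.

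**Figure D4:**
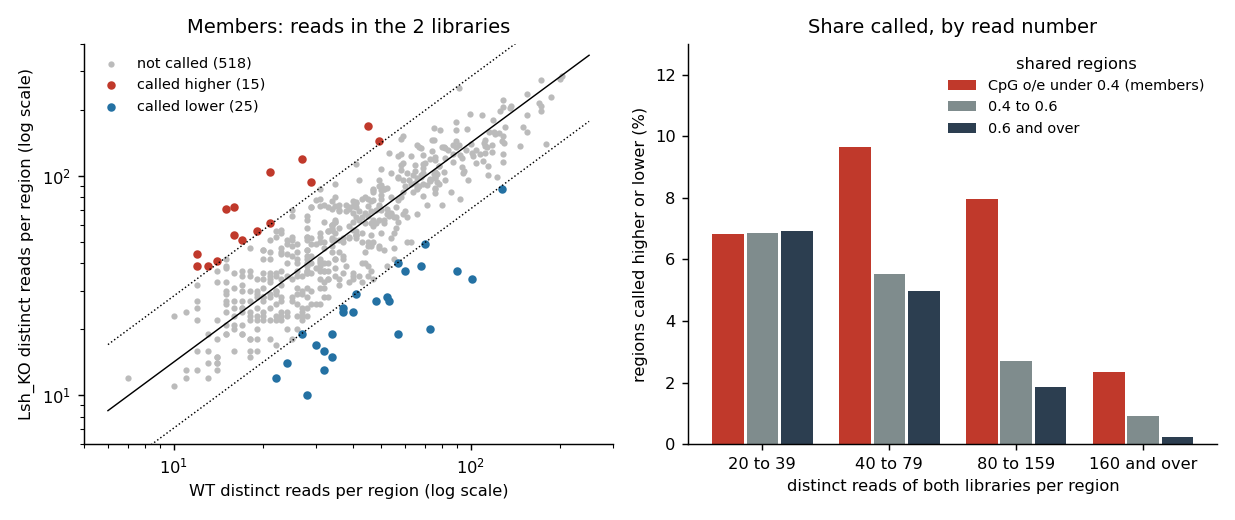
Distinct reads of each member in WT (x axis) and Lsh_KO (y axis), both log scales, with the scaled equal line solid and the 2-fold lines dotted, beside the share of regions called by read number for 3 CpG classes. The 15 higher and 25 lower members lie outside the 2-fold lines, and the members' bars exceed the others from 40 reads up.

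Among the members called higher in Lsh_KO, 5 held a matched promoter. Hmcn1, which encodes the extracellular matrix protein hemicentin 1, had 21 WT and 104 Lsh_KO reads in chr1:152754001-152756200, a 3.49-fold higher scaled level (2.17 to 5.87). S1pr5, a receptor for sphingosine 1-phosphate, had 15 and 71 reads in chr9:20998001-20999400 (3.33-fold, 1.89 to 6.26). Clec2d, a C-type lectin that is a ligand of natural killer cell receptors, had 29 and 94 in chr6:129146001-129148400 (2.28-fold, 1.49 to 3.59). Its promoter holds the interferon word. Cald1, the actin-binding protein caldesmon, had 2 members. The second, chr6:34639201-34641800, had 49 and 145 reads (2.08-fold, 1.5 to 2.94), and the first, chr6:34528201-34531200, had 128 and 223 and was not called (log2 ratio 0.29). With the 5 Mb ratio in the scaling, the log2 ratio of the second went from 1.06 to 0.77 and its call ended. Dhcr7, the enzyme of the last step of cholesterol synthesis, had 14 and 41 (2.06-fold, 1.10 to 4.09), and was not called with the window counts of the submitters.

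The other leading higher members had no matched promoter, but the region on chromosome 18 was not searched for a match. The region chr1:171945801-171947800 had 27 WT and 119 Lsh_KO reads (3.10-fold, 2.03 to 4.90), and the nearest start that could be placed, that of Uap1, lay 63839 bp away. The region chr6:31016001-31019000, with a CpG ratio of 0.192, had 16 and 72 (3.17-fold, 1.82 to 5.83). The region chr18:33585801-33589600 had 45 and 169 (2.64-fold, 1.89 to 3.76), and its log2 ratio went from 1.40 to 1.06 with the 5 Mb ratio. The region chr7:126415801-126416600 had 12 and 44 reads (2.58-fold, 1.34 to 5.37) and lay 18 bp from the start of Nupr1, a stress-induced chromatin protein. In chr15:38329001-38330200 there were 16 and 54 (2.38-fold, 1.34 to 4.45) and in chr19:53503401-53505000 21 and 61 (2.04-fold, 1.23 to 3.53). The last was not called with repeated reads kept or with the window counts of the submitters.

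Of the 25 members called lower in Lsh_KO, 3 lay at or beside the starts of Ifit1bl2, Oas1c and Oasl2, genes of interferon-induced families, a grouping made after the values were seen. How many of all members lie at genes of such families was not counted, so the 3 have no share to be read against. Ifit1bl2, of the family of interferon-induced proteins with tetratricopeptide repeats, had 57 WT and 19 Lsh_KO reads in chr19:34706401-34708600, a 4.26-fold lower scaled level (2.50 to 7.59). Oas1c, of the oligoadenylate synthetase family, had 68 and 39 in chr5:121072801-121074000 (2.48-fold lower, 1.65 to 3.77). With total reads as the scaling Oas1c was 1.97-fold lower and not called. The region chr5:115158001-115160000, which lay 68 bp from the start of Oasl2 of the same family, had 90 and 37 (3.46-fold lower, 2.33 to 5.22). On the list of interferon and antigen presentation genes, 1 of 19 with a promoter lay in a member, Gbp2, a guanylate-binding GTPase, with 11 and 24 reads and no call. In any merged region lay 11 of the 19, with 4 at a CpG ratio of 0.4 to 0.6 and 5 at 0.6 and over.

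The 2 members whose intervals lay farthest below 1 held no start that could be placed. The region chr4:62186001-62187400 had 73 WT and 20 Lsh_KO reads (5.19-fold lower, 3.13 to 8.98), with the nearest placed start 174019 bp away. The region chr1:136617001-136620200 had 101 and 34 (4.22-fold lower, 2.84 to 6.42), and the nearest placed start was 26319 bp away. Smaller members followed: chr15:83413801-83415000 with 28 and 10 reads (3.98-fold lower, 1.88 to 9.18), chr15:44577801-44579000 with 32 and 13 (3.50-fold, 1.79 to 7.26) and chr2:118587601-118588600 with 34 and 15 (3.22-fold, 1.71 to 6.36). The region chr5:35841601-35842400, 87 bp from the start of Cpz, a secreted carboxypeptidase, had 52 and 28 (2.64-fold lower, 1.64 to 4.34).

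A further 6 lower members held a matched promoter. Tor4a, of the torsin family of ATPases, had 53 WT and 27 Lsh_KO reads (2.79-fold lower, 1.72 to 4.61). Zfp85os, a transcript of the strand opposite a zinc finger gene, had 32 and 16 (2.84-fold lower, 1.51 to 5.55), and its region also held a placed start of Zfp65. Mst1r, the receptor tyrosine kinase Ron, had 127 and 87 (2.07-fold lower, 1.57 to 2.76) and held the most reads of the 25. Calhm2, of a family of ion channels, had 60 and 37, Snx7, a sorting nexin, had 70 and 49, and Mtmr11, of the myotubularin family, had 41 and 29. Their scaled levels were 2.30-fold, 2.03-fold and 2.01-fold lower. Mst1r and Calhm2 were not called with total reads as the scaling. Snx7 was not called with total reads, the 5 Mb ratio or the window counts of the submitters, and Mtmr11 with none of these nor with repeated reads kept.

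**Figure D5:**
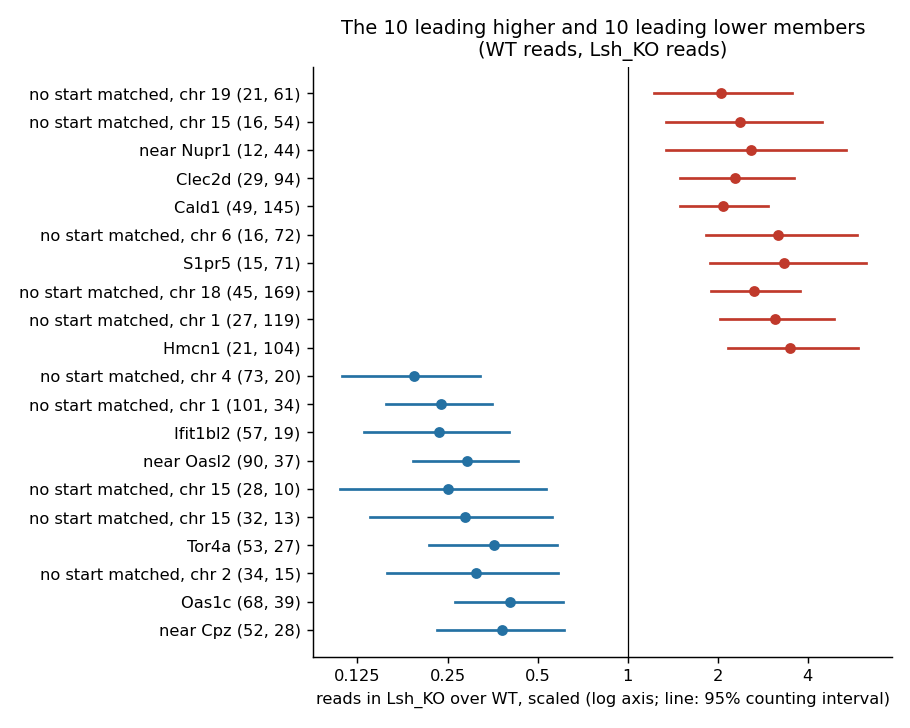
Scaled ratio of Lsh_KO to WT (x axis, log scale, points with 95% exact conditional intervals from counting error) of the 10 leading members called higher and the 10 called lower, named by the matched or a near start. Hmcn1 lies at 3.49 and the interval of every member shown excludes 1.

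Of the 27025 genes with a promoter in the table, 238 (0.881%) were matched in a member and 6925 (25.6%) in any merged region, and the counts of the lists are to be read beside these. Of 18 actin and contractile genes with a promoter in the table, 3 lay in members: Cald1, Csrp1 (73 WT and 95 Lsh_KO reads) and Acta2, smooth muscle actin (34 and 57). Of these, 1 region of Cald1 was called higher and 0 lower. Anxa1, of the annexins, was 1 of 15 S100 and annexin genes (79 and 162 reads), and Cxcl1, a neutrophil chemokine, was 1 of 15 cytokine genes (30 and 78). Plaur was 1 of 16 protease genes. None of these 3 was called. In any merged region lay 9 of the 18 actin and contractile, 6 of the 15 S100 and annexin, 2 of the 15 cytokine and 5 of the 16 protease genes. At a CpG ratio of 0.4 to 0.6 lay 4, 4, 0 and 3 of them. Of 13 AP-1 and immediate early genes, 20 extracellular matrix genes, 15 germ line genes, 6 keratins and 6 small RNA and ribosomal genes with a promoter, 0 lay in members, which is near the share over all genes for lists of this size. In any merged region lay 7 of the 13, 5 of the 20, 0 of the 15, 1 of the 6 and 2 of the 6. The list of matrix genes does not hold Hspg2 or Hmcn1, matrix genes that lay in members.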

How the data were processed

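Chromatin precipitated for H3K4me3 was sequenced from 1 WT and 1 Lsh_KO mouse embryonic fibroblast line. For each, the authors deposited a list of aligned 25-base reads with position, strand, bases and a whole-number alignment score, and a list giving the count of reads for each 200 bp window. The deposited alignment score was not used to filter reads. The build is mm8, per the submitters' processing notes. The aligner and the way the deposited counts were made are not given in the sources used here. The deposited window counts are whole numbers, and no scaling of them was found.

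Reads that repeated a position and strand were dropped, and the rest were shifted 75 bp towards their 3′ side. The WT list held 2869399 aligned reads, of which 13.9% were repeats, and the Lsh_KO list 3428628, of which 18.6% were. A ratio was called at 2-fold or more with a 95% interval that excluded 1. The depth gave the members a median of 36 WT and 52 Lsh_KO reads. The rule was tested on simulated data for 200 members per fold. It called 58.0% of those 2-fold higher and 44.0% of those 2-fold lower, and 99.0% and 88.5% at 3-fold. With no difference simulated, at most 0.5% were called in either direction. The simulated counts varied by Poisson counting error alone, without variation between cultures or libraries. The 0.5% is therefore not the share of false calls among the members. A call itself needs an observed ratio of 2-fold or more, so the shares at 2-fold are set largely by that limit and do not measure depth. Only the Lsh_KO reads were raised or lowered, so the lower cases had fewer reads than the higher ones. Promoters came from RefSeq on GRCm38.p6 and were matched by sequence, so no coordinates were converted. The 12 members on chromosome 18 were not matched to promoters and are not analysed here for genes. Named regions are the 10 higher and the 10 lower members whose interval bound lies farthest from 1, the 10 members and the 20 promoter-matched members with most reads, all called members with a promoter, and genes of the lists. The members and the lists were chosen with earlier results of these data known. Scripts ran in Python 3.11.15 with matplotlib 3.10.9, scipy 1.17.1, pandas 2.3.3 and numpy 2.4.6. Alternatives changed how counts were scaled, repeated reads, the read shift, the source of the counts and the thresholds.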

Additional observations from a re-analysis of the deposited data

How the results depend on the processing

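No paired analysis was possible because each genotype had 1 library and no replicate numbers. With 15 members higher, 25 lower and a median log2 ratio of -0.04 as reported, scaling by total reads gave 48 higher, 12 lower and a median of 0.29, and scaling by the other shared regions a median of -0.10. Keeping repeated reads gave 26 higher, of which 13 were among the 15. The background ratio of each 5 Mb bin moved the median to 0.069, so its sign depended on the scaling. The further reads of the window lists alone gave 28 higher and 38 lower. A CpG ratio under 0.3 left 6 higher, 11 lower and a median of -0.10, from fewer members. The causes of the other shifts were not tested. The number of members ran from 375 to 601 over 4 other window, region and read settings, and the matched members from 171 to 273 with at least 6 or 1 matching reads. Of WT reads near member starts, 26.6% lay before the start, 24.7% without starts on both strands and 28.4% with at least 6 matching reads, both chosen after seeing the data, as was the minimum of 6 matching reads for the AP-1 and interferon words, each then in 8.19% of member promoters. Leaving out the 6 members with over 30% mismatched reads, also chosen after seeing the data, changed no count of calls. In simulation a 2-fold difference was called in 58.0% (higher) and 44.0% (lower) of cases, shares set largely by the 2-fold limit of the call itself. No replicate was left out, since there was none.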

Other observations

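Zinc finger genes named Zfp with a number, a group chosen after the values were seen, made up 16 of the 238 genes matched in members (6.72%, exact 95% interval 3.89 to 10.7). They were 4.18% of the genes matched at a CpG ratio of 0.4 to 0.6, 2.21% at 0.6 and over and 1.22% of the 27025 genes of the promoter table. Of the 16, 5 lay on chromosome 7 and 4 on chromosome 13, where such genes stand in clusters and share sequence, and words found in more than 1 gene were not used. Their WT reads ran from 15 to 70 and their Lsh_KO reads from 19 to 115, and the median log2 ratio was 0.20. None of the 16 was called in either direction, and with shares of 2.69% and 4.49% over all members nothing can be read from that in a group of this size. The antisense transcript Zfp85os is not counted among them. Its region, called lower, also held a placed start of Zfp65, to which it was not matched.

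Other interferon-induced genes with a promoter in a member, picked from the matched genes after their values were seen, were not called in either direction with the scaling by marked windows. Isg20, an exonuclease, had 25 WT and 18 Lsh_KO reads (log2 ratio -0.98). Xaf1 had 43 and 33 (-0.89) and was called lower once the scaling took in the 5 Mb background ratio. Helz2 had 35 and 35 (-0.51) and Herc6 44 and 45 (-0.47). Eif2ak2, the kinase PKR, had 51 and 87 (0.26). Total reads as the scaling would add 0.33 to each. Among genes of the matrix and cell surface, Pcolce, an enhancer of procollagen processing, had 84 and 131 (0.13), Emilin1 28 and 25 (-0.67) and the receptor Lrp1 128 and 126 (-0.53), none of them called.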
